A study of Arabidopsis thaliana with 12 samples.

Results

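AT5G55580 (mTERF9) and AT3G18870 are a pair of Arabidopsis thaliana genes for mTERF proteins whose array signals lay on opposite sides of wild type in the prors2 mutant. They were chosen for that contrast, from the features that the platform's gene table ties to exactly 1 gene. Of 3439 features on the array, 692 had 1 gene in that table, 870 had several and 1877 were not in it. Each of the 2 genes had 1 single-gene feature, and both features passed the filter on low values. Because their difference between the genotypes chose them, it is described below without a test.

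Total RNA of 6 prors2 samples and 6 wild-type (WT) samples was measured on 1-colour arrays, 1 sample per array. Both groups are in the Columbia 0 background, and prors2 is labelled a mutant that lacks prolyl-tRNA synthetase, which charges the proline tRNA. The sources used here give neither the tissue, plant age, growth conditions or nature of the allele, nor whether each sample was a separate plant or culture, so the spread between samples may be technical. The deposited values are relative intensities on a linear scale with an upper limit of 100, divided by a quantity that the sources do not name.

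mTERF proteins are named after an animal protein that stops transcription in mitochondria. Plants have a large family of them, encoded in the nucleus and mostly sent to chloroplasts or mitochondria, where they bind organellar DNA or RNA through rows of short helical repeats. mTERF9 is a chloroplast protein known for its part in the assembly of chloroplast ribosomes and so in chloroplast translation. AT3G18870 belongs to the same family and has no symbol of its own in the reference gene table.

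The arrays of the 2 genotypes differed as a whole, which sets how each value can be read. The median feature stood between 0.279 and 0.305 on the prors2 arrays and between 0.135 and 0.169 on the WT arrays. A prors2 array had 262 to 316 features at exactly 0, and a WT array 368 to 396. Over the 3024 features tested, the median log2 difference (prors2 minus WT) was 0.76 on the deposited values and 0.69 at equal array sums. It was -0.06 after median centring and 0.07 after quantile normalization, the scaling used below unless another is named. A higher deposited value in prors2 was therefore common on these arrays, and a lower one was not. Among the tested features, 37.2% had all their deposited prors2 values above all WT values, and 6.38% had all of them below.

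mTERF9 was low in prors2. Its deposited relative intensity in prors2 replicates 1 to 6 was 0.247, 0, 0.463, 0.426, 0.381 and 0.443. In WT replicates 1 to 6 it was 1.38, 1.23, 1.77, 1.67, 1.17 and 1.05. The groups did not overlap: the brightest prors2 sample, replicate 3, was below the dimmest WT sample, replicate 6. Among the tested features 6.38% separated in this direction on the deposited values. The mean was 0.327 ± 0.178 in prors2 and 1.38 ± 0.285 in WT (SD, n = 6 each). Over the 5 prors2 samples above 0 the mean was 0.392 ± 0.0868, so that the WT mean was 3.51 times that of these samples on the deposited scale.

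AT3G18870 was high in prors2. Its deposited relative intensity in prors2 replicates 1 to 6 was 1.07, 1.03, 1.49, 1.37, 1.03 and 1.08. In WT replicates 1 to 6 it was 0.39, 0.416, 0.524, 0.574, 0.436 and 0.428, with no sample at 0 in either genotype. Here too the groups did not overlap, in the other direction, and the dimmest prors2 sample was well above the brightest WT sample. A separation in this direction was common, at 37.2% of the tested features on the deposited values. The mean was 1.18 ± 0.199 in prors2 and 0.461 ± 0.0716 in WT (SD, n = 6 each), a ratio of 2.55 on the deposited scale. These are bulk RNA samples, in which fewer cells of a type and less RNA per cell cannot be told apart.

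**Figure D1:**
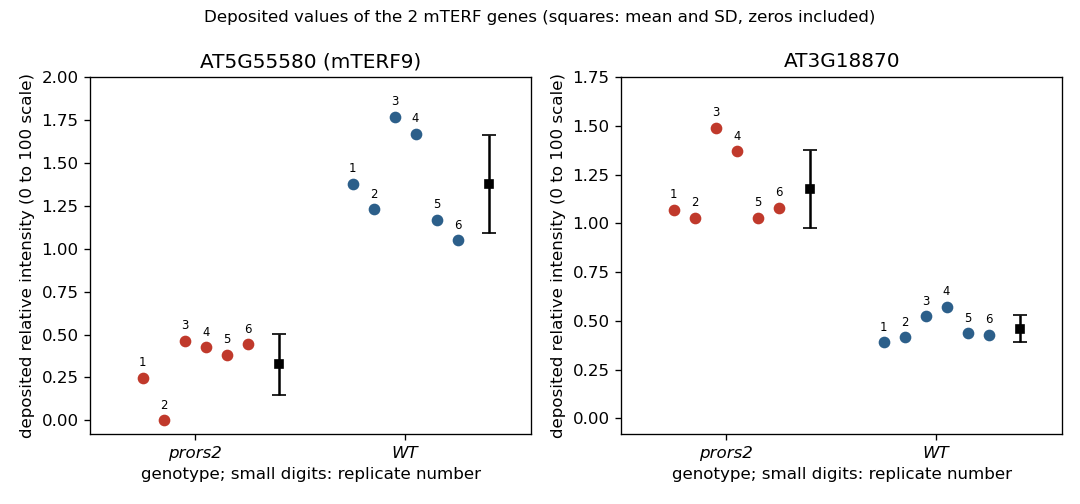
Deposited relative intensity (linear scale) of AT5G55580 (left panel) and AT3G18870 (right panel) in 6 prors2 and 6 WT samples. Each point is 1 sample with its replicate number, and squares with bars are means with SD, zeros included. The prors2 values of AT5G55580 (0 to 0.463) lie below all WT values, and those of AT3G18870 (1.03 to 1.49) lie above all WT values.

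A rank within the array does not depend on how an array was scaled. AT5G55580 was brighter than 0% to 65.6% of the features on its prors2 arrays (median 61.4%) and brighter than 89.9% to 93.0% on its WT arrays (median 91.1%). AT3G18870 was brighter than 86.5% to 90.1% of the features on its prors2 arrays (median 87.3%) and than 75.1% to 80.7% on its WT arrays (median 78.2%). mTERF9 thus ranked lower on each prors2 array than on any WT array, and AT3G18870 ranked higher. The share of all features whose ranks separated the genotypes in this way is not given here. How common such a separation was can therefore not be read from these ranks.

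After quantile normalization between arrays, with zeros left out, AT5G55580 differed by -2.30 on the log2 scale (SE 0.18, 5 prors2 and 6 WT samples), a 4.94-fold lower level in prors2. AT3G18870 differed by 0.93 (SE 0.12, 6 samples each), a 1.91-fold higher level. Set among the 606 tested single-gene features by this log2 difference, mTERF9 had the rank 3 from the lowest. AT3G18870 had the rank 95 from the highest. Among these single-gene features the difference of mTERF9 thus lay near the lower end, while 94 of them lay above that of AT3G18870.

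**Figure D2:**
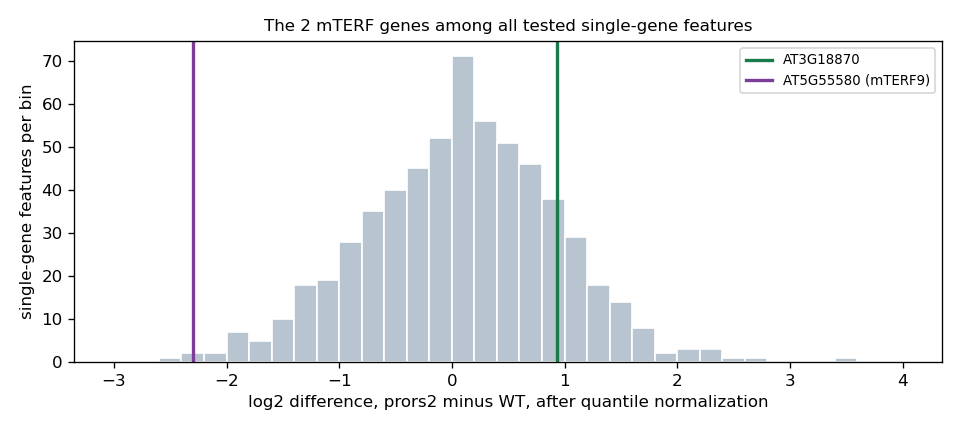
Histogram of the log2 difference (prors2 minus WT, after quantile normalization) over the 606 tested single-gene features, with vertical lines at AT3G18870 (0.93) and AT5G55580 (-2.30). The line of AT5G55580 stands in the sparse lower tail, and that of AT3G18870 on the upper shoulder.

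Compared by replicate number, AT5G55580 was lower in prors2 in all 5 pairs with a value in both samples. After quantile normalization its log2 differences in replicates 1, 3, 4, 5 and 6 were -2.98, -2.31, -2.40, -2.17 and -1.79. AT3G18870 was higher in prors2 in 6 of 6 pairs. Its log2 differences in replicates 1 to 6 were 1.0, 0.88, 1.16, 0.93, 0.74 and 0.89. The pairs of mTERF9 differed more among themselves (SD 0.43 over 5 pairs) than those of AT3G18870 (SD 0.14 over 6 pairs), and replicate 1 gave the lowest value for mTERF9. Both genes were chosen for their direction, and the share of all features with the same sign in every pair is not given here. How common such agreement was can therefore not be read from these counts.

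The size of both differences moved with the scaling, and the direction did not. AT5G55580 lay at -1.82 (SE 0.20) on the deposited values, at -1.90 (SE 0.18) at equal array sums and at -2.65 (SE 0.17) after median centring. AT3G18870 lay at 1.35 (SE 0.14), 1.28 (SE 0.12) and 0.52 (SE 0.12) under the same 3 scalings. Within replicate numbers, AT3G18870 ran from 1.24 to 1.51 on the deposited values and from 0.28 to 0.76 after median centring, higher in 6 of 6 pairs in each case. AT5G55580 ran from -2.48 to -1.24 on the deposited values and from -3.26 to -2.21 after median centring, lower in 5 of 5 pairs in each case. For these counts too, the share of all features with the same sign in every pair is not given.

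**Figure D3:**
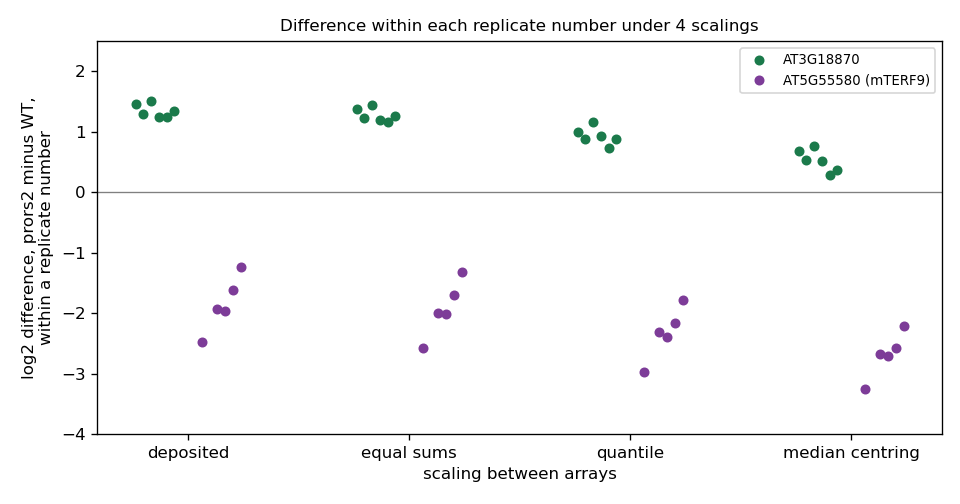
Log2 difference (prors2 minus WT) within each replicate number, drawn in the order of the numbers, for AT3G18870 and AT5G55580 under 4 scalings between arrays. Points of AT3G18870 stay above 0 (from 0.28 to 1.51) and points of AT5G55580 stay below 0 (from -3.26 to -1.24). Replicate 2 has no point for AT5G55580, whose prors2 value was 0.

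A scale factor of an array cancels when the 2 genes are compared within it. The log2 value of AT3G18870 minus that of AT5G55580, on the deposited values, was 2.12, 1.69, 1.68, 1.44 and 1.29 in prors2 replicates 1, 3, 4, 5 and 6. In WT replicates 1 to 6 it was -1.82, -1.57, -1.75, -1.54, -1.43 and -1.29. The 2 probes may differ in brightness for the same amount of RNA, so the sign in one genotype says nothing, and the change between genotypes is what can be read. The mean was 1.64 ± 0.32 (SD, n = 5) in prors2 and -1.57 ± 0.20 (SD, n = 6) in WT, a difference of 3.21 on the log2 scale. Over these samples the ratio of AT3G18870 to mTERF9 signal was 9.25 times higher in prors2, whatever linear factor each array carried. Prors2 replicate 2, where mTERF9 was at 0, is not in that value. With it kept, the log2 difference was 3.67 with an offset, and 5.84 where the lowest positive value replaced zeros. The pair was chosen for lying on opposite sides of WT, so a difference here follows from that choice and is given as a description.

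The single zero of mTERF9 affects its size. In prors2 replicate 2, 316 features were at 0, the most on any prors2 array. Of 2929 features above 0 in the other 5 prors2 samples, 38 were at 0 in replicate 2. The median of AT5G55580 over those 5 samples was 0.426, and 4 of the 38 had a median at least as high, AT5G55580 included, of 1245 features as bright. A zero at this brightness was therefore rare on that array. Kept with an offset of 0.0296 added to each value before log2, the difference of AT5G55580 was -2.81 (SE 0.53). With zeros set to the lowest positive value of the table it was -4.96 (SE 2.48). Without prors2 replicate 2 it was -2.33 (SE 0.18). That fit removed no value of AT5G55580, whose zero was already missing, so it does not check the effect of the zero.

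Within a genotype, replicates 3 and 4 were the brightest WT samples for both genes. Replicates 3 and 4 were also the brightest prors2 samples for AT3G18870, and replicate 3 was the brightest for AT5G55580. The array medians were highest in replicates 3 and 4 too, at 0.301 and 0.305 in prors2 and at 0.169 on both arrays in WT. The part of the array's overall brightness in these levels was not tested. After normalization, the spread around the group means was an SD of 0.30 for AT5G55580 and 0.18 for AT3G18870 on the log2 scale, against a median of 0.34 over the tested features. AT3G18870 was thus one of the steadier features, with 12.1% of tested features having a smaller spread. For AT5G55580 the share was 41.2%, but its SD leaves out prors2 replicate 2, where it was at 0. With that zero kept, the SE of its log2 difference was 0.53 (offset) or 2.48 (lowest positive value), against 0.18 without it. Over the 11 samples with both genes, their normalized deviations from the group means correlated with a Pearson r of 0.496 and a Spearman rho of 0.545, a description only, since both genes were read on the same arrays.

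A second feature bears on mTERF9 and was not used in choosing it. The platform table ties it to AT1G78930 and AT5G55580 together, so its signal cannot be assigned to either gene. It was dim, with deposited values in prors2 replicates 1 to 6 of 0.205, 0.156, 0.241, 0.262, 0.193 and 0.113. In WT replicates 1 to 6 it had 0.0638, 0.105, 0.12, 0.0922, 0.0547 and 0.0376. The deposited values were higher in prors2 with 1 small overlap, between the lowest prors2 and the highest WT sample. After quantile normalization the log2 difference was 0.38 (SE 0.25, limma adjusted p = 0.24), not past the threshold of 0.05. On the deposited values it was 1.36 (limma adjusted p = 0.00167), at equal sums 1.29 (limma adjusted p = 0.00181) and after median centring 0.54 (limma adjusted p = 0.118). The difference was thus above 0 under all 4 scalings, where that of the single-gene feature of mTERF9 was below 0.

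The reference gene table also places other genes over the ends of both. AT5G55570 overlaps AT5G55580 and had a single-gene feature of its own, named here because of the overlap. It had deposited values of 0.104 to 0.245 in prors2 and 0.053 to 0.0816 in WT, and a normalized log2 difference of 0.15 (SE 0.22), not past the threshold (limma adjusted p = 0.622). On the deposited values AT5G55570 was called higher, at 1.14 (limma adjusted p = 5.65e-04), and at equal sums at 1.06 (limma adjusted p = 0.00111). AT3G18860 and the long non-coding gene AT3G03785 overlap AT3G18870, and no feature is tied to either. The sources used here do not say whether the probes separate the strands or these overlaps, so a contribution of the overlapping genes to the signals was not tested.

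Few other genes of the mTERF family had a single-gene feature. Of 33 further loci listed for the family, 6 had a single-gene feature, and all 6 were tested: 1 rose, 1 fell and 4 did not pass. Across the array 24.8% of the 3024 tested features were called higher and 22.4% lower, so counts of this size are near the background. Without scaling, 57.8% of the features passed with a rise and 8.90% with a fall. Median centring gave 19.8% with a rise and 29.1% with a fall. Their median log2 difference was -0.06, against 0.07 over all tested features.

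AT1G62010 was the riser, with 0.342 ± 0.0572 in prors2 and 0.132 ± 0.0641 in WT (deposited values, SD, n = 6 each). Its normalized log2 difference was 0.61 (SE 0.23, limma adjusted p = 0.0446), and the call was lost in 10 of the 12 fits on genotype alone that left out 1 sample (log2 differences of 0.51 to 0.81 over the 12). With replicate numbers as a block and all samples, the limma adjusted p was 0.00575 at the same difference. With zeros kept with an offset the limma adjusted p was 0.0726. AT1G62150 was the gene that fell, by 0.47 (SE 0.11, limma adjusted p = 0.00389) after quantile normalization. Its deposited values, however, were 0.267 ± 0.0429 in prors2 and 0.207 ± 0.0323 in WT (SD, n = 6 each), a log2 difference of 0.37 (limma adjusted p = 0.0319), so its direction depends on the scaling. After median centring AT1G62150 was lower again, at -0.46 (limma adjusted p = 0.0039).

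The other 4 were AT1G61990, AT3G46950, AT1G79220 and AT4G09620. AT1G61990 had 0.386 ± 0.0363 in prors2 and 0.21 ± 0.0507 in WT (SD, n = 6 each), with a normalized log2 difference of 0.14 (SE 0.13, limma adjusted p = 0.419). AT3G46950 had 0.672 ± 0.0848 in prors2 and 0.486 ± 0.0893 in WT, with -0.02 (SE 0.14, limma adjusted p = 0.93). For both, the deposited values were called higher, at 0.91 (limma adjusted p = 0.0003) and 0.48 (limma adjusted p = 0.00906), and after median centring neither was called. The median log2 difference over all tested features on the deposited values was 0.76, below the rise of AT1G61990 and above that of AT3G46950. After median centring they lay at 0.09 (limma adjusted p = 0.625) and -0.35 (limma adjusted p = 0.0687). The part of the array's shift in these rises was not tested.

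AT1G79220 had 0.749 ± 0.127 in prors2 and 0.586 ± 0.132 in WT (SD, n = 6 each), with a normalized log2 difference of -0.09 (SE 0.19, limma adjusted p = 0.723). AT4G09620 had 0.805 ± 0.0933 in prors2 and 0.699 ± 0.0894 in WT, with -0.19 (SE 0.10, limma adjusted p = 0.152). After median centring AT4G09620 was called lower, at -0.62 (limma adjusted p = 2.44e-04).

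In all, 6 features are each tied to several genes, all of them on the mTERF list, and so report on genes that the probe cannot separate. They include the feature of AT1G78930 and AT5G55580 described above. Of the 6 features 1 rose and 5 did not pass, a share no higher than the 24.8% called higher across the array. Their median log2 difference was 0.48, against 0.07 over all tested features. The riser was the feature shared by AT1G21150, AT5G07900 and AT5G64950, with 0.432 ± 0.105 in prors2 and 0.14 ± 0.0591 in WT (deposited values, SD, n = 6 each). Its log2 difference was 0.94 (SE 0.34, limma adjusted p = 0.0393), and the call was lost in 6 of the 12 fits that left out 1 sample. Over the 12 it ran from 0.61, without WT replicate 3, to 1.07, without WT replicate 1.

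Both features shared by AT1G61970 and AT1G61980 had positive differences with wide errors, at 1.30 (SE 0.60, limma adjusted p = 0.0993) for one and 0.58 (SE 0.45, limma adjusted p = 0.33) for the other. With replicate numbers as a block the other of these passed, at 0.86 (limma adjusted p = 0.016). Leaving out 1 sample gave 0.81 to 1.61 for the first, which passed without WT replicate 1 (limma adjusted p = 0.0446) and without WT replicate 3 (limma adjusted p = 0.0425), and 0.37 to 0.87 for the other. The feature of AT1G61960, AT1G61990, AT1G62490 and AT3G46950 lay at 0.29 (SE 0.24, limma adjusted p = 0.356), and at 0.09 without WT replicate 5. The brightest shared feature, that of AT1G56380, AT1G62085 and AT1G62110, had 2.19 ± 0.185 in prors2 and 2.04 ± 0.23 in WT (SD, n = 6 each). It lay at 0.07 (SE 0.09, limma adjusted p = 0.567), but at -0.72 after median centring (limma adjusted p = 3.94e-05).

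**Figure D4:**
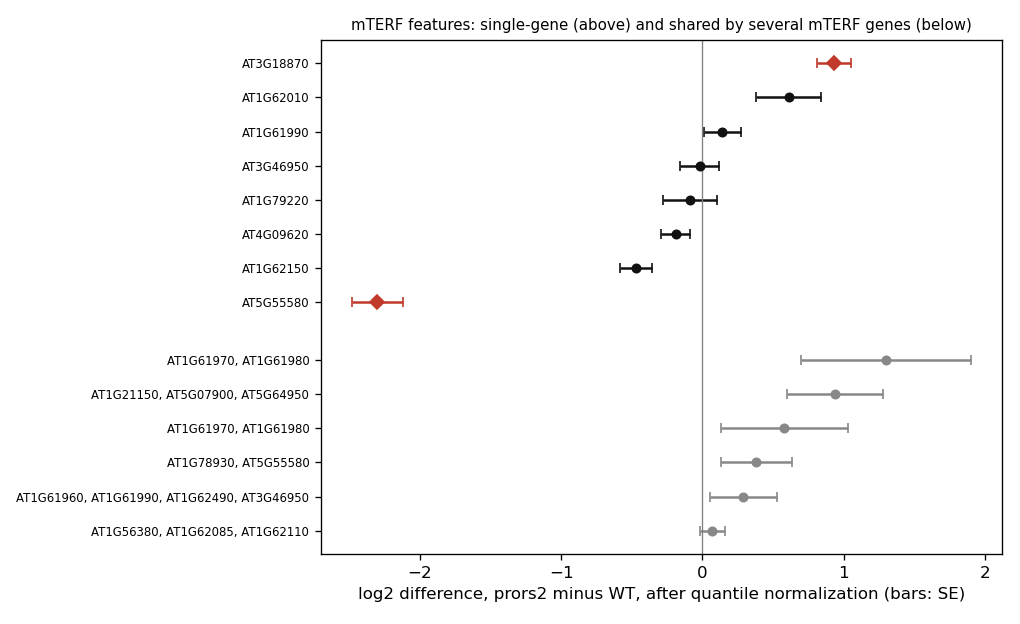
Log2 difference (prors2 minus WT, after quantile normalization) with its SE for the 8 single-gene mTERF features (upper block, AT3G18870 and AT5G55580 as red diamonds) and the 6 features shared by several mTERF genes (lower block, grey). AT3G18870 (0.93) and AT5G55580 (-2.30) stand at the ends of the single-gene block, the places they were chosen for, and the other single-gene features lie between -0.47 and 0.61.

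Genes of the machinery in which mTERF9 works had few single-gene features. Of 22 loci listed for plastid transcription none had a single-gene feature, so 0 were tested. Of 40 loci for plastid ribosomal proteins, 6 had one and 4 were tested: 1 rose, 0 fell and 3 did not pass, close to the 24.8% called higher across the array, with a median log2 difference of -0.28 against 0.07 over all tested features. The riser was AT3G54210, with 1.15 ± 0.155 in prors2 and 0.589 ± 0.036 in WT (deposited values, SD, n = 6 each), and differed by 0.61 after normalization (SE 0.12, limma adjusted p = 9.82e-04). After median centring AT3G54210 lay at 0.13 and was not called (limma adjusted p = 0.338). The 3 that did not pass lay below 0 after normalization. AT1G64510 differed by -0.77 (SE 0.39), AT3G13120 by -0.31 (SE 0.28) and AT4G01310 by -0.25 (SE 0.19), with limma adjusted p of 0.124, 0.384 and 0.321 in that order. On the deposited values the same genes lay at 0.16, 0.34 and 0.40. Of 8 loci for plastid ribosome assembly and chaperonins, AT5G14910 alone was tested, at 0.41 (SE 0.21, limma adjusted p = 0.124). Leaving out prors2 replicate 2 gave a call, at 0.61 (limma adjusted p = 0.00244).

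The single-gene features most like each gene over the samples were picked by Pearson's r on normalized log2 values. For AT5G55580, compared with 566 features over 11 samples, they were AT1G51350 (r = 0.984), AT1G21500 (r = 0.982) and AT1G74470 (r = 0.974). For AT3G18870, compared with 589 features over 12 samples, they were ATSIK (AT3G08760, r = 0.983), AT4G19900 (r = 0.98) and AT4G35660 (r = 0.973). Such values rest mostly on the difference between the genotypes. Taken on the deviations from the group means instead, the features most like AT5G55580 were OTP70 (AT4G25270, r = 0.932), AT1G72540 (r = 0.875) and AT5G39980 (r = 0.858). Those most like AT3G18870 were again ATSIK (r = 0.861), then AT3G04650 (r = 0.854) and AT3G26580 (r = 0.826). These are the highest of all the values computed, over features of the same arrays, and are a description only.

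OTP70, a pentatricopeptide repeat protein that acts in splicing of a plastid transcript, followed the deviations of mTERF9 within the genotypes, yet its own log2 difference between them was 0.00 (SE 0.15). ATSIK stood first for AT3G18870 on both measures and had a log2 difference of 1.10 (SE 0.14). AT3G04650, which followed AT3G18870 within the genotypes, had a log2 difference of -0.96 (SE 0.16). The 2 measures shared 1 of 3 features for AT3G18870 and 0 of 3 for AT5G55580.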

How the data were processed

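The values are relative intensities, as deposited by the authors, on a linear scale that reaches 100. The sources used here do not give the kind of array, the software or how the background was corrected. There were 0 value columns of other samples. Zeros were treated as missing, and the log2 values were quantile-normalized between arrays. Features with at least 4 of 6 values above 0 in each group were tested with lmFit and eBayes of limma 3.58.1 (R 4.3.3) on genotype alone, two-sided, adjusted by Benjamini and Hochberg over 3024 features, threshold 0.05. No p is given for AT5G55580 and AT3G18870. The fit was tested on simulated data.

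Genes were named from the platform's gene table, possibly old, by way of the TAIR10.1 gene table, which matched 690 of the 692 single-gene features. Coordinates are left out, since the array's build is not known. Sequences were not used here. A list of pentatricopeptide repeat genes taken from the synonyms of that table held 12 loci, 0 of them with a single-gene feature. The list was incomplete, since it missed OTP70, a gene of this kind with a single-gene feature. It therefore does not show that the array lacks such genes.

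The genes and lists were chosen with earlier results of these data known. The rule for named genes took both genes, all mTERF loci with a single-gene feature, up to 3 tested members of each other list, and the 3 features most like each gene on either measure. Genes of shared features and AT5G55570 were added after their values were seen.

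Same-numbered prors2 and WT samples deviated together from their group means (correlations of 0.212 to 0.399 over 2654 complete features, and 12 of 12 samples matched their own number best). The numbers were therefore taken to pair the samples, on the data alone, since the labels do not say so. The alternatives were 3 other scalings, 2 treatments of zeros, a replicate block, leaving out the dimmest 25% of features, and leaving out each sample. The number of arrays limits the precision.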

Additional observations from a re-analysis of the deposited data

Results flagged for a closer look

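In WT, AT1G62010 had 1 sample far from the others: replicate 1 stood at a deposited relative intensity of 0.259, while the other WT samples lay between 0.0922 and 0.134. The gap was 0.747 of the group's whole range, above Dixon's 95% critical value of 0.625 for 6 samples. Of 16 groups examined, 2 for each of 8 mTERF genes, this 1 stood out. Chance flags about 1 group in 20, so 1 flag among 16 groups is near what chance gives.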

How the results depend on the processing

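AT5G55580 stayed lower and AT3G18870 higher in prors2 under each alternative run. With the replicate block they lay at -2.33 and 0.93, and leaving out 1 sample gave -2.40 to -2.16 and 0.88 to 0.98. Scaling moved them to -1.82 and 1.35 (deposited), -1.90 and 1.28 (equal sums) and -2.65 and 0.52 (median centring). For AT5G55580, an offset before log2 gave -2.81 and the lowest positive value in place of zeros -4.96; for the change of the within-array ratio (3.21) these gave 3.67 and 5.84, quantile-normalized values, chosen after seeing the data, 3.27, and leaving out 1 sample 3.09 to 3.30. Of 1427 calls, 751 were higher and 676 lower; deposited values gave 1747 and 269, equal sums 1664 and 298, the replicate block 846 and 759, and leaving out 1 sample 702 to 737 and 627 to 665. Among the 6 further mTERF genes (1 higher, 1 lower) the counts were 4 and 0 on deposited values, 3 and 0 at equal sums, 1 and 2 after median centring, 0 and 1 under both treatments of zeros, and 0 to 1 and 1 to 2 without 1 sample. Among the shared mTERF features (1 higher, 0 lower) they were 5 and 0 on deposited values and at equal sums, 1 and 1 after median centring, 0 and 0 with zeros replaced by the lowest positive value, 2 and 0 with the replicate block, and 0 to 2 higher without 1 sample. Plastid ribosomal proteins had 0 higher after median centring and 0 to 1 lower without 1 sample; the assembly list had 1 higher on deposited values and at equal sums, and 0 to 1 without 1 sample. Among the mTERF features, signs turned on deposited values and at equal sums for AT1G62150 (0.37 and 0.29), AT1G79220 (0.37 and 0.29), AT3G46950 (0.48 and 0.41) and AT4G09620 (0.21 and 0.13). After median centring the sign turned for the feature of AT1G56380, AT1G62085 and AT1G62110 (-0.72). Among the plastid ribosomal proteins, signs turned on deposited values and at equal sums for AT1G64510 (0.16 and 0.09), AT3G13120 (0.34 and 0.27) and AT4G01310 (0.40 and 0.33). Without 1 sample AT3G46950 ran from -0.09 to 0.05 and AT1G79220 from -0.18 to 0.00. The replicate block changed no other call on a named mTERF or list gene than that of 1 feature of AT1G61970 and AT1G61980. The unscaled values and equal sums keep the upward shift of the prors2 arrays, with a median log2 difference of 0.76 and 0.69. The cause of that shift and the causes of the changes listed here were not tested.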
